A study of Rattus norvegicus with 11 samples.

Results

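The thioredoxin-interacting protein Txnip and 9 genes around it were compared in the left dentate gyrus of rats at 3 months post-TBI. The genes are Txnip and its relatives Arrdc3 and Arrdc4, thioredoxin (Txn1) and thioredoxin reductase (Txnrd1), the cystine transporter Slc7a11 and the subunits of the enzyme that starts glutathione synthesis (Gclc and Gclm), and the stress enzymes Hmox1 and Nqo1. They were chosen from the difference between TBI and control, with the rise of Txnip already known, and are 10 of 17245 genes with a probe set of their own on the array. All 10 had 1 such probe set each, none of them was at background in any rat, and all 10 were among the 16572 genes tested.

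Adult male Sprague-Dawley rats were given lateral fluid-percussion injury, a blow of fluid pressure to the exposed dura over the left hemisphere, and are called TBI. The controls had the same anesthesia, skull opening and surgery but no impact, so the craniectomy and anesthesia were shared by both groups. The labels set the time of sampling at 90 days for both. RNA of the dentate gyrus together with the hilus, on the side of the injury, was hybridised to Affymetrix Rat Gene 1.1 ST arrays, 1 array for each of 6 TBI and 5 control rats. Values are log2 signals, so a difference of 1 is a doubling of signal, and the level of one probe set cannot be set against that of another. In a piece of tissue, a change in the number of cells of a type and a change in RNA per cell cannot be told apart.

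Txnip belongs to the alpha-arrestins, adaptor proteins with arrestin folds, and is unusual among them in binding the reduced form of thioredoxin and blocking it. It also promotes the withdrawal of glucose transporters from the cell surface, and its gene is switched on by glucose through the transcription factors MondoA and ChREBP. Thioredoxin reduces disulfides in other proteins and is itself reduced by thioredoxin reductase. Glutathione, the other main thiol of the cell, is built from cysteine, which astrocytes obtain largely as cystine through Slc7a11. The transcription factor NRF2 drives Slc7a11, Gclc, Gclm, Txnrd1, Nqo1 and Hmox1 when cells meet oxidants.

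Of the variance between rats of the same group, 63.9% lay on a single component. TBI rats 1 and 3 and control rat 2 stood apart on it, with scores of 0.425 to 0.487 against -0.345 to 0.0601 in the other 8 rats. TBI rat 3 also had the highest array median over the tested probe sets, 6.067 against 5.954 to 5.981. Values without these 3 rats are given beside the results for each gene and list. The component was computed from these same arrays, and leaving out the rats that stand apart on it can shrink the spread within groups. The p-values of the fit to the other 8 rats can therefore be too low, and genes that pass only there are descriptions. The label of the tissue was checked against marker genes. The neuron markers had mean log2 signals of 9.85 to 10.00 in TBI and 9.91 to 10.00 in control rats, and C1ql2, a granule cell gene, was at 9.36 and 9.55. Tdo2, another granule cell marker, was at 3.35 and 3.30, close to the background.

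The sequence close to the start sites of the genes was searched for short motifs of the known regulators. RefSeq sequences on the GRCr8 build were given for 8 of the 10 genes, with 2 start sites for Txnrd1. No promoter was given for Txnip or Hmox1, so neither was searched. Each covers 300 bases, 250 before the start site and 50 from it on. The motifs searched on both strands were CACGTG, the E-box bound by MondoA and ChREBP, and TGACNNNGC, the core of the antioxidant response element bound by NRF2. The pair of motifs share no overlapping match here. Matches are in capitals, and TGACNNNGC reads GCNNNGTCA where it lies on the other strand. The 3 promoters with a match are shown.
Arrdc4, chr1:131793376-131793675, minus strand: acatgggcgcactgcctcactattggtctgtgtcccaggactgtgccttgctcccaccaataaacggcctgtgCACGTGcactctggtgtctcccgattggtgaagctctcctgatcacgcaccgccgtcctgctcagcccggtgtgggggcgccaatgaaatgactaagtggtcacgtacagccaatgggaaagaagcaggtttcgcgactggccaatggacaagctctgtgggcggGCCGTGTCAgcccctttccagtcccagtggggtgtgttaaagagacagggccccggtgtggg
Gclm, chr2:213031885-213032184, plus strand: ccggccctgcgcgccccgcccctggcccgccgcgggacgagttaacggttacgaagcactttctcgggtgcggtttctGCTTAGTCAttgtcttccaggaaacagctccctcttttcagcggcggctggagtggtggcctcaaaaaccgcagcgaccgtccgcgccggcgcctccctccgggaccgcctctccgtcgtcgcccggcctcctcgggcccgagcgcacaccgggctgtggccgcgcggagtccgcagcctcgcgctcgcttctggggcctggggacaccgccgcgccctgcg
Txnrd1, second start site, chr7:22755855-22756154, minus strand: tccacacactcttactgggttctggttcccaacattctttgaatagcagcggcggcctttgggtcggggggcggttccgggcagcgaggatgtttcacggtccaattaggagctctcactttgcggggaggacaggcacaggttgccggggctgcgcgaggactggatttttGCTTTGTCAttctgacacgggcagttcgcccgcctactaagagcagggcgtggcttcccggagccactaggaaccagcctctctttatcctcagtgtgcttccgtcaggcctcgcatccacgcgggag

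Arrdc4 held both motifs, the E-box with its first base at -177 from the start site and the antioxidant core at -12. In Gclm the antioxidant core began at -172, and in the second Txnrd1 promoter at -78. None of these letters was found in the windows of Arrdc3, Txn1, Slc7a11, Nqo1 and Gclc or at the other Txnrd1 start site. Sequence outside the windows was not searched, so these genes may carry the motifs elsewhere. Over all 33469 rat promoters of this length in the table, 12.1% held the antioxidant core and 6.42% held the E-box, so single matches of either kind are common.

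Txnip rose after TBI. Its log2 signal was 6.25, 6.57, 6.53, 6.44 and 6.65 in the 5 control rats and ran from 6.83 through a median of 7.11 to 7.28 in the 6 TBI rats. Every TBI rat lay above every control, as was the case in 0.821% of all genes tested. The means were 7.09 ± 0.16 (SD, n = 6) and 6.49 ± 0.16 (SD, n = 5), a log2 fold change of 0.60 (standard error, SE, 0.088) or a 1.52-fold increase. In the limma fit over all probe sets this gave adjusted p = 0.026, where 0.151% of genes were higher at the threshold of 0.05, and placed Txnip 12th of 16572 genes by the test statistic and 13th by the size of the increase. Since Txnip was picked for this difference, these values describe it and are no independent evidence.

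The size of the increase did not rest on a single rat, but its adjusted p did. With each rat left out in turn the log2 fold change stayed between 0.54 and 0.66, and without control rat 2 and TBI rats 1 and 3 it was 0.70 (SE 0.089, adjusted p = 0.011). The adjusted p ranged from 0.013 to 0.11 over the 11 fits with 1 rat left out and was above the threshold in all of them but those without TBI rat 1, 2 or 3. It was 0.07 with each array centred on its median and 0.064 with a second quantile normalization.

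Neither relative of Txnip passed the test. Arrdc4, which like Txnip is induced by glucose through MondoA, had values of 6.07, 6.12, 6.03, 6.18 and 6.15 in control rats and of 6.16, a median of 6.20 and 6.35 in TBI rats. The groups overlapped, with 4 of the 6 TBI rats above every control. TBI rats were higher by 0.12 on the log2 scale (SE 0.046, adjusted p = 0.6), against 0.60 for Txnip. Without the 3 rats that stand apart Arrdc4 differed by 0.15 (adjusted p = 0.17). Arrdc3, an adaptor that directs receptors such as the beta-adrenergic receptors to degradation, was at 6.31, 6.73, 6.50, 6.50 and 6.46 in control rats and at 6.11 to 6.69, with a median of 6.43, in TBI rats. Its 2 lowest values were those of TBI rats 4 and 6, and its 2 highest those of control rat 2 and TBI rat 1, which stand apart on the component. The log2 fold change of Arrdc3 was -0.11 (SE 0.11, adjusted p = 0.89), and -0.16 (adjusted p = 0.32) without the 3 rats. Among the other arrestin-domain genes, Arrdc1 differed by 0.13, Arrdc2 by 0.059 and Arrdc5 by 0.032 on the log2 scale, none with an unadjusted p under 0.05. In the other 8 rats, 3 of the 6 arrestin-domain genes were higher at the unadjusted p, where 9.46% of all genes were. Arrdc1 (0.16) was added there, and Txnip alone passed after adjustment. In all 11 rats the family had 1 gene higher at the adjusted threshold, Txnip, and a median log2 fold change of 0.091, against 0.012 over all genes. That median includes Txnip, which was picked for its rise, and Arrdc3 and Arrdc4, which were chosen with it, so nothing is read from it.

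**Figure D1:**
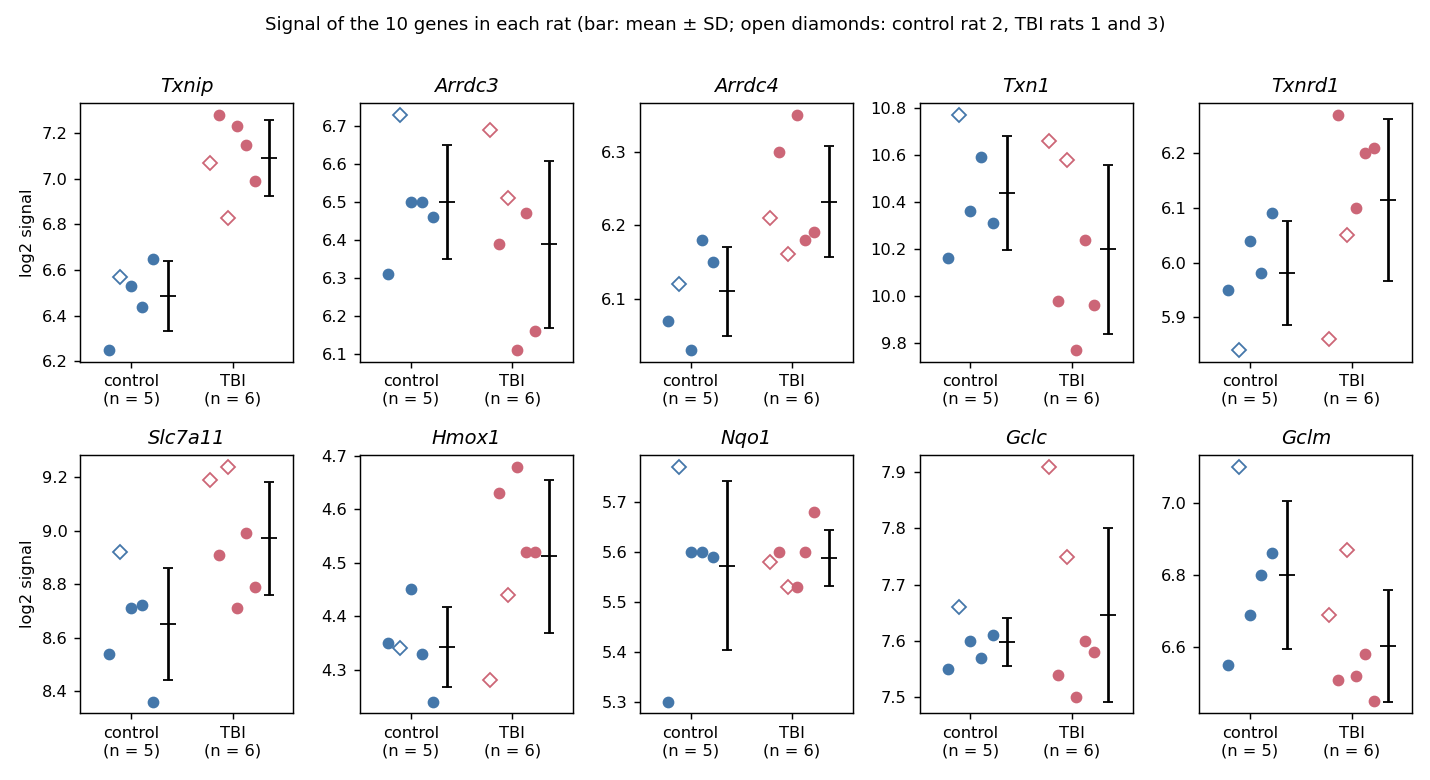
Log2 signal of each of the 10 genes in every rat, control rats in blue (n = 5) and TBI rats in red (n = 6), with the group mean ± SD as a black bar and each panel on its own scale. Txnip is the only one of the 10 in which no TBI rat overlaps a control, and in Txn1, Slc7a11 and Gclc the open diamonds (control rat 2, TBI rats 1 and 3) lie high in their groups.

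Thioredoxin itself, which Txnip binds, had a lower mean after TBI, within the spread between rats. Txn1 was at 10.16, 10.77, 10.36, 10.59 and 10.31 in control rats and at 9.77 to 10.66, with a median of 10.11, in TBI rats. TBI rats 2, 4 and 6 were below every control, while TBI rats 1 and 3 were among the 4 highest of all 11. The means were 10.20 ± 0.36 (SD, n = 6) and 10.44 ± 0.24 (SD, n = 5), a difference of -0.24 on the log2 scale (SE 0.17, adjusted p = 0.86). With the 3 rats left out, the 4 TBI rats ran from 9.77 to 10.24 and the 4 control rats from 10.16 to 10.59, and the log2 fold change was -0.37 (SE 0.11, adjusted p = 0.1). It did not pass the threshold in either set of rats.

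Txnrd1, the cytosolic reductase that returns thioredoxin to its active form, was at 5.95, 5.84, 6.04, 5.98 and 6.09 in control rats and at 5.86 to 6.27, with a median of 6.15, in TBI rats. It lay above every control in 4 of the 6 TBI rats, and the lowest value in each group was that of a rat that stands apart, control rat 2 and TBI rat 1. On the log2 scale the difference was 0.14 (SE 0.072, adjusted p = 0.79). Without the 3 rats the groups did not overlap, at 6.10 to 6.27 against 5.95 to 6.09, as in 5.65% of all genes, and differed by 0.18 on that scale (adjusted p = 0.087). Txnrd1 and Txn1 thus differed in opposite directions, neither past the adjusted threshold.

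Of the 20 genes of the thioredoxin and peroxiredoxin system that were tested, 1 was higher and 1 was lower at an unadjusted p under 0.05, and none passed after adjustment. Over all genes 4.89% were higher and 1.89% were lower by that measure. The higher one was Prdx6, a peroxidase that uses glutathione and is abundant in astrocytes (log2 fold change 0.24, adjusted p = 0.55), and the lower one was Txn2, the thioredoxin of mitochondria (-0.18, adjusted p = 0.62). The median over the list was -0.026. Srxn1, which repairs oxidised peroxiredoxins, differed by -0.0096. In the other 8 rats, 3 were higher and 3 lower at the unadjusted p, where 9.46% and 10.2% of all genes were, and Prdx6 passed after adjustment (0.30, adjusted p = 0.024), as 1.01% of all genes did on the higher side and 0.513% on the lower.

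Slc7a11 carried the second largest increase of the 10 genes. The transporter, which brings in cystine in exchange for glutamate, was at 8.54, 8.92, 8.71, 8.72 and 8.36 in control rats and at 8.71 to 9.24, with a median of 8.95, in TBI rats. TBI rats 1, 3 and 5 lay above every control and TBI rats 2, 4 and 6 within their range. The difference was 0.32 on the log2 scale (SE 0.11), a 1.25-fold increase in mean signal, with adjusted p = 0.57. It was 0.27 (adjusted p = 0.14) without the 3 rats. In all 11 limma fits with 1 rat left out the unadjusted p was under 0.05, but the adjusted p was 0.39 to 0.92. Slc3a2, the partner chain that Slc7a11 needs at the cell surface, differed by 0.087 (adjusted p = 0.89).

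Neither subunit of the enzyme that Slc7a11 feeds passed the test. Gclc, the catalytic subunit of glutamate-cysteine ligase, was at 7.55, 7.66, 7.60, 7.57 and 7.61 in control rats and at 7.50 to 7.91, with a median of 7.59, in TBI rats. TBI rats 1 and 3 were above every control and TBI rats 2 and 4 were below every control, so the TBI group was wider than the control group on both sides. The log2 fold change was 0.047 (SE 0.068, adjusted p = 0.94), and -0.031 without the 3 rats. Gclm, the subunit that raises the activity of the enzyme, was at 6.55, 7.10, 6.69, 6.80 and 6.86 in control rats and at 6.45 to 6.87, with a median of 6.55, in TBI rats. It was lower than every control in 3 of the 6 TBI rats, and the groups differed by -0.20 on the log2 scale (SE 0.097, adjusted p = 0.76). With the 3 rats left out, it was -0.21 (adjusted p = 0.12), and TBI rats ran from 6.45 to 6.58 against 6.55 to 6.86 in controls.

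The list of glutathione synthesis and use includes Slc7a11, Slc3a2, Gclc and Gclm. At an unadjusted p under 0.05, 3 of its 27 tested genes were higher, Slc7a11 among them, and 2 were lower. All genes gave 4.89% higher and 1.89% lower by that measure. None of the list passed after adjustment. The nearest to the threshold was Mgst1, a membrane-bound glutathione transferase, with means of 5.77 and 5.35, which differ by 0.41 on the log2 scale (SE 0.07, adjusted p = 0.0504). Gstp1, a cytosolic glutathione transferase, differed by 0.19 (adjusted p = 0.24) and Mgst3, another membrane-bound member, by -0.21 (adjusted p = 0.41). The synthase Gss and the reductase Gsr each differed by -0.037. The median over the list, 0.015, was close to that over all genes. Without the 3 rats 4 were higher and 4 lower at the unadjusted p, where 9.46% and 10.2% of all genes were. Mgst1 (0.50, adjusted p = 0.011) and Gstp1 (0.27, adjusted p = 0.013) passed after adjustment there, as 1.01% of all genes did on the higher side.

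Hmox1, which opens the heme ring and releases its iron, was at 4.35, 4.34, 4.45, 4.33 and 4.24 in control rats and at 4.28 to 4.68, with a median of 4.52, in TBI rats. TBI rats 2, 4, 5 and 6 lay above every control, and TBI rats 1 and 3 within the control range. The groups differed by 0.17 on the log2 scale (SE 0.068, adjusted p = 0.63). In the other 8 rats, the groups did not overlap, at 4.52 to 4.68 against 4.24 to 4.45, as in 5.65% of all genes. The log2 fold change there was 0.25 (adjusted p = 0.064).

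Nqo1, a quinone reductase often used as the readout of NRF2, had nearly the same mean in both groups. It was at 5.30, 5.77, 5.60, 5.60 and 5.59 in control rats and at 5.53 to 5.68, with a median of 5.59, in TBI rats. All 6 TBI rats lay within the range of the controls, which was set by control rat 1 at the bottom and control rat 2 at the top. The log2 fold change was 0.012 (SE 0.069, adjusted p = 0.99), and it was -0.0091 once each array was centred on its median. With the 3 rats left out, it was 0.078 (adjusted p = 0.59).

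Over the 10 genes, 7 log2 fold changes were positive and 3 negative, with a median of 0.085. With the arrays centred on their medians the positive ones were 6, since Nqo1 changed sign. Across all 16572 genes, 57.3% of log2 fold changes were positive. At the adjusted threshold 1 of the 10 was higher, where 0.151% of all genes were, and 0 were lower, where 0.0121% were. At an unadjusted p under 0.05, 4 were higher (Txnip, Arrdc4, Slc7a11 and Hmox1) against 4.89% of all genes, and 0 were lower against 1.89%. In 1 gene, Txnip, every TBI rat lay above every control, as in 0.821% of all genes, and in 0 did every TBI rat lie below, as in 0.211%. The 10 were assembled around this contrast, so nothing is read from these counts.

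Without control rat 2 and TBI rats 1 and 3, the genes past an unadjusted p of 0.05 were 5 higher (Txnip, Arrdc4, Txnrd1, Slc7a11 and Hmox1) and 2 lower (Txn1 and Gclm). These 8 rats gave 9.46% of all genes higher and 10.2% lower by the same measure. In 3 genes (Txnip, Txnrd1 and Hmox1) every one of the 4 TBI rats lay above every one of the 4 controls, and in 0 did all lie below, where 5.65% and 4.43% of all genes did. Txnip alone among the 10 passed the adjusted threshold there.

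**Figure D2:**
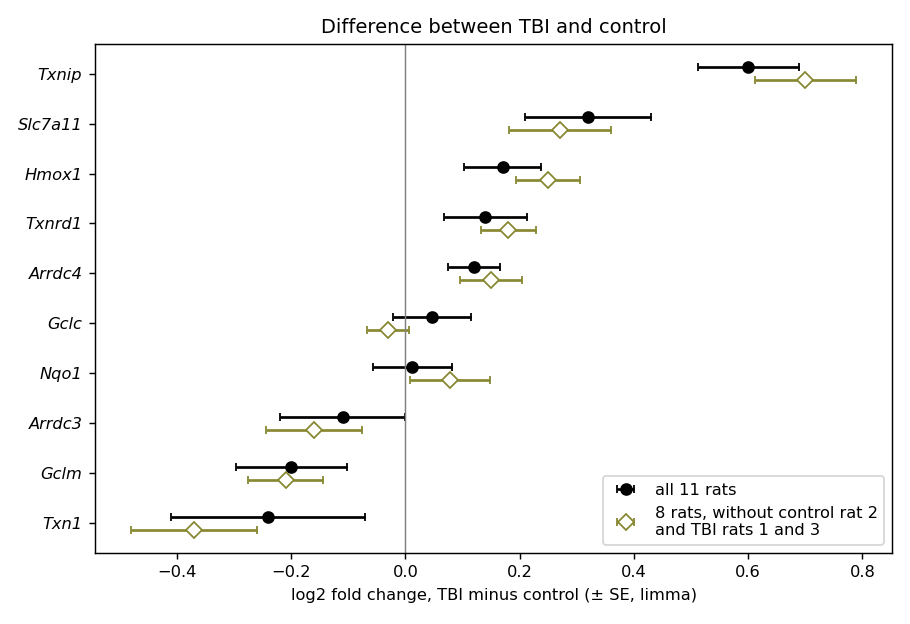
Log2 fold change of each gene, TBI minus control, with its standard error from limma, in all 11 rats (filled circles) and in the 8 rats left without control rat 2 and TBI rats 1 and 3 (open diamonds). Txnip lies furthest right in both sets, at 0.60 and 0.70, and Txn1 furthest left, at -0.24 and -0.37.

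Several of the 10 genes varied between rats of the same group along the component on which 3 rats stand apart. As a description over the 11 rats, with group means removed, the correlation with the score on that component was 0.97 for Txn1, 0.92 for Arrdc3, 0.88 for both Slc7a11 and Gclm and 0.85 for Gclc. It was negative for Txnrd1 (-0.74) and Hmox1 (-0.65). Txnip (-0.17), Arrdc4 (-0.23) and Nqo1 (0.36) varied little with it. The component was computed from these same arrays, the 10 genes included. With its score as a covariate in the fit, 2 of the 10 were higher, Txnip (adjusted p = 0.0026) and Slc7a11 (adjusted p = 0.0076), and 2 were lower, Txn1 (adjusted p = 0.011) and Gclm (adjusted p = 0.04). In that fit 2.27% of all genes were higher and 2.59% lower. Since the component is built from deviations from the group means, it left the log2 fold changes as they were. Only the standard errors changed, for Txn1 from 0.17 to 0.046, so the p-values of that fit can be too low. What the component stands for was not tested.

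**Figure D3:**
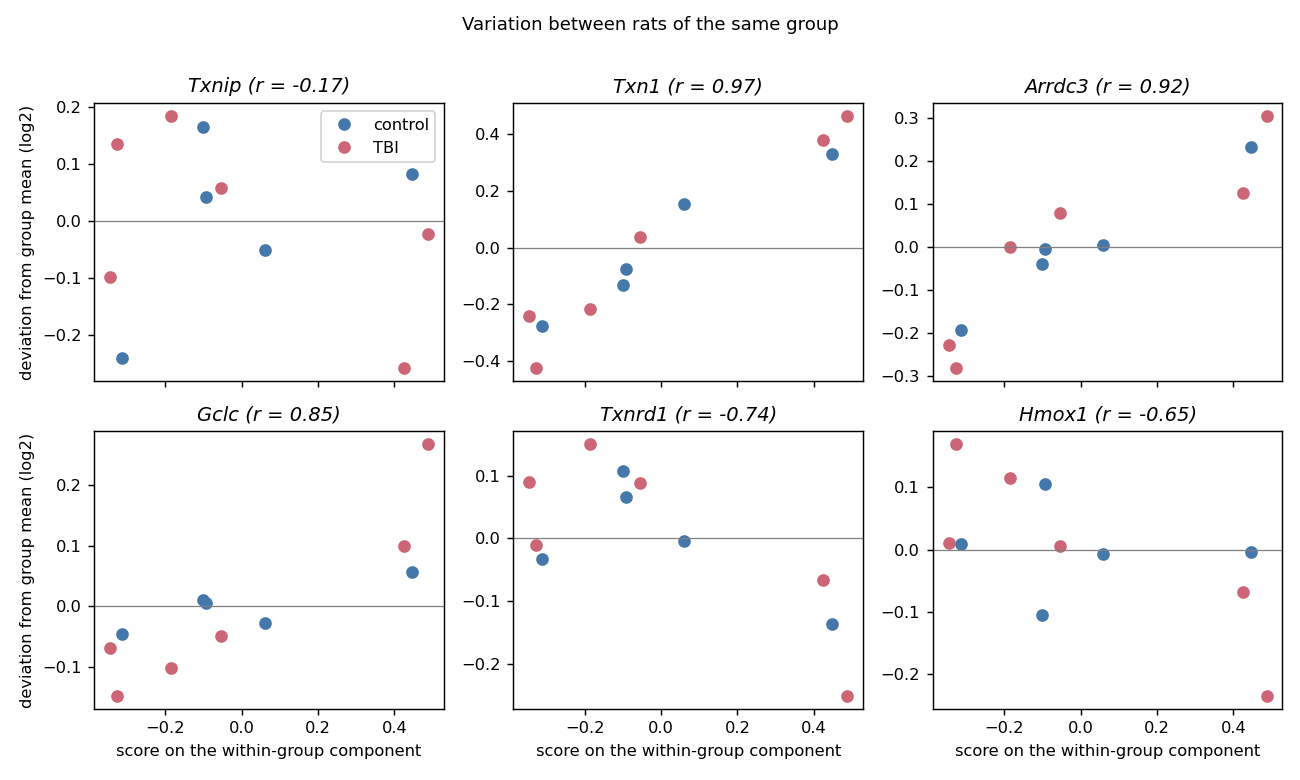
Deviation of 6 genes from their group mean (log2) against the rat's score on the main within-group component, control rats in blue and TBI rats in red, n = 11. Txn1, Arrdc3 and Gclc climb with the score, Txnrd1 and Hmox1 decline, and Txnip shows no slope of that kind (r = -0.17).

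Whether Txnip varied from rat to rat together with any of the other 9 genes was tested with group means removed, by exact two-sided permutation within groups, and none of the 9 pairs passed. Arrdc4 came closest, with Pearson's r = 0.59 (exact permutation p = 0.079, adjusted p = 0.6) and Spearman's rho = 0.54 (exact permutation p = 0.12, adjusted p = 0.69). Without TBI rat 4 and control rat 4 the r for Arrdc4 was 0.68. For Nqo1, r was 0.49 (exact permutation p = 0.14) and fell to 0.043 without control rats 1 and 2, so it rested on those rats. For Txn1 it was -0.27 (exact permutation p = 0.46), and 0.057 without TBI rats 1 and 3.

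The genes whose signal followed that of Txnip most closely over the 11 rats were A2m (Pearson's r = 0.97), Entpd2 (0.96), Slc7a5 (0.95), Mt1 (0.94) and Gfap (0.94). A2m encodes the protease inhibitor alpha-2-macroglobulin, Entpd2 an enzyme that splits extracellular ATP, Slc7a5 the large neutral amino acid transporter, Mt1 a metallothionein and Gfap the intermediate filament of astrocytes. All 5 were higher in TBI in mean, by 0.64, 0.22, 0.24, 0.29 and 0.83 on the log2 scale in that order, so the likeness includes the difference between groups. A2m and Gfap passed the adjusted threshold and the other 3 did not. With group means removed, Or2ak5b (0.94), Entpd2 (0.91), Or51b6b (0.90), Fam234b (0.90) and Fpgt (0.90) came first. The odorant receptor genes Or2ak5b and Or51b6b had means of 3.71 and 3.14 in TBI, close to the background, and Entpd2 was the only gene in both groups of 5. Both groups were picked as the highest correlations among all genes tested, over only 11 rats. High values can arise from such a choice alone, and the likeness was not tested.

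Some astrocyte markers were higher in TBI and others were not. Of 13 tested, 5 were higher at an unadjusted p under 0.05 and 0 were lower, where 4.89% and 1.89% of all genes were. Gfap (10.26 against 9.43) and Mlc1 (9.21 against 8.92), a membrane protein of astrocyte endfeet, passed after adjustment. Log2 fold changes were positive in 10 and negative in 3, Slc1a3 (-0.092), Gjb6 (-0.085) and Slc1a2 (-0.0048). The mean over the 13 markers was 9.18 to 9.25 in TBI rats and 8.99 to 9.14 in controls. It includes Gfap, which differed by 0.83 on the log2 scale, and was not taken without it. Without the 3 rats 8 astrocyte markers were higher at the unadjusted p, where 9.46% of all genes were. Gja1, the main gap junction protein of astrocytes, passed adjustment there with Gfap and Mlc1 (0.23, adjusted p = 0.017). Of 16 microglia and macrophage markers, 3 were higher and 1 was lower at that p, and none passed after adjustment. Cd68, a lysosomal protein of phagocytes, differed by 0.58 (adjusted p = 0.14), Fcrl2 by 0.75 (adjusted p = 0.17) and Aif1, a calcium-binding protein of microglia and the 1 that was lower, by -0.15 (adjusted p = 0.61). The mean over the 16 ran from 6.16 to 6.46 in TBI rats and from 5.92 to 6.36 in controls. In the other 8 rats, 10 were higher and 0 were lower, where 9.46% and 10.2% of all genes were. Cd68 (0.69, adjusted p = 0.024) and Fcrl2 (0.89, adjusted p = 0.044) passed there, as 1.01% of all genes did on the higher side.

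Some vessel genes were higher, at the unadjusted threshold only. Of 11 endothelial markers, 3 were higher at an unadjusted p under 0.05, where 4.89% of all genes were. The 2 with the lowest p were Emcn (0.29) and Cdh5 (0.15). Slco1c1 (-0.16) and Itm2a (-0.031) had negative log2 fold changes. The endothelial list mean was 6.50 to 6.65 in TBI rats, inside the range of 6.40 to 6.75 in control rats. Of 11 pericyte and smooth muscle markers 4 were higher, the 2 with the lowest p being Abcc9 (0.14) and Pdgfrb (0.17). The mean over the 11 was 6.16 to 6.30 in TBI rats against 6.02 to 6.19 in control rats. Neuron markers had 2 of 11 lower, Tubb3 (-0.13) and Stmn2 (-0.088), where 1.89% of all genes were. Granule cell markers had 0 of 10 in either direction. With the 3 rats left out, 5 endothelial and 7 pericyte and smooth muscle markers were higher, 4 neuron markers were lower, and 2 granule cell markers were lower, C1ql2 (-0.27, adjusted p = 0.092) and Dock10 (-0.13, adjusted p = 0.12), none of them past adjustment. Among all genes 9.46% were higher and 10.2% lower at the unadjusted p without the 3 rats. The part of these cell types in the values of Txnip and the other 9 genes was not tested.

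At an unadjusted p under 0.05, 4.89% of all genes were higher and 1.89% lower. Among 9 fibroblast and meningeal markers 1 was higher by that measure, Igf2 (0.37), and Col1a2 differed by 0.096 (adjusted p = 0.82). Of 9 T cell and leukocyte markers 1 was higher, Ptprc (0.17), and Cd4 differed by 0.22 (adjusted p = 0.77). Oligodendrocyte (10 tested), choroid plexus (8) and erythrocyte (3) markers had 0 genes past that p in either direction. The values nearest to it were those of Opalin (0.17) and Mobp (-0.15), Aqp1 (0.13) and Folr1 (0.079), and Slc4a1 (-0.047) and Alas2 (0.017). Without the 3 rats 4 fibroblast and meningeal markers were higher, with Igf2 past adjustment (0.49, adjusted p = 0.0079). In the same fit 1 T cell and leukocyte marker was higher and 1 oligodendrocyte marker was lower, and choroid plexus and erythrocyte markers still had 0. All genes gave 9.46% higher and 10.2% lower there, and 1.01% higher past adjustment.

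The regulators and other targets of NRF2 were counted next. Among all genes tested, 4.89% were higher and 1.89% lower at an unadjusted p under 0.05. None of the 13 regulators was higher, and 1 was lower at an unadjusted p under 0.05, Nfe2l1, a relative of NRF2 (-0.11, adjusted p = 0.67). Nfe2l2, which encodes NRF2, differed by 0.099 (adjusted p = 0.88) and its inhibitor Keap1 by 0.093 (adjusted p = 0.89). Of 31 tested target genes, 5 were higher and 0 were lower at that p: Mgst1, Slc7a11, Hmox1, Ftl1 (ferritin light chain, 0.15, adjusted p = 0.27) and Taldo1 (a pentose phosphate enzyme, 0.19, adjusted p = 0.64). The median over the list was 0.018. In the other 8 rats, 1 regulator was higher and 1 lower, and 8 targets were higher and 3 lower, where 9.46% and 10.2% of all genes were. Mgst1, Taldo1 (0.22, adjusted p = 0.039) and Ftl1 (0.20, adjusted p = 0.045) passed adjustment there, as 1.01% of all genes did on the higher side.

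Several heme and iron genes were higher at the unadjusted threshold only. Over all genes 4.89% were higher and 1.89% lower at an unadjusted p under 0.05. In the list of heme breakdown, 5 of 9 were higher and 0 were lower by that measure, with a median of 0.12. They were Hmox1, Ftl1, Blvra (biliverdin reductase, 0.31, adjusted p = 0.68), Cp (the iron oxidase ceruloplasmin, 0.22, adjusted p = 0.47) and Hpx (the heme carrier hemopexin, 0.12, adjusted p = 0.63). Metallothioneins and metal-binding antioxidants had 4 of 6 higher and 0 lower, with a median of 0.20, led by Mt1 (0.29, adjusted p = 0.18). This list shares Ftl1 and Cp with that of heme breakdown, and no gene of either passed after adjustment. With the 3 rats left out, 4 heme breakdown genes and 5 of the metal-binding list were higher and 0 lower, where 9.46% and 10.2% of all genes were. Ftl1 in both lists and Mt1 (0.39, adjusted p = 0.011) in the second passed adjustment there, as 1.01% of all genes did on the higher side. Genes that remove superoxide and peroxide had 1 of 13 higher (Prdx6) and 1 lower, Sod3, the extracellular superoxide dismutase (-0.25, adjusted p = 0.29), with a median of -0.00033, and 2 higher, with Prdx6 past adjustment, and 2 lower without the 3 rats.

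Genes tied to the known control of Txnip were taken in the same way, beside 4.89% of all genes higher and 1.89% lower at an unadjusted p under 0.05. Of 16 genes of glucose sensing and uptake, 4 were higher and 0 were lower at an unadjusted p under 0.05: Txnip, Arrdc4, Mxd4 (a transcription factor of the MAX network, 0.21, adjusted p = 0.68) and Slc2a4 (the insulin-responsive glucose transporter, 0.095, adjusted p = 0.72). Mlxip, which encodes MondoA, differed by 0.0099, and Slc2a1, the glucose transporter of vessels and astrocytes, by 0.093 (adjusted p = 0.87). Among 20 targets of the glucocorticoid receptor 3 were higher and 0 lower, Mt1, Sdc4 (a syndecan, 0.27, adjusted p = 0.33) and Klf9 (a transcription factor, 0.11, adjusted p = 0.63). Of 16 targets of FoxO factors 4 were higher and 0 lower. Those with the lowest p were the ubiquitin ligase Fbxo32 (0.32, adjusted p = 0.27), Bcl6 (a transcriptional repressor, 0.21, adjusted p = 0.53) and Sesn3 (a sestrin, 0.11, adjusted p = 0.59). The medians of these 3 lists were 0.077, 0.092 and 0.11. Without the 3 rats 7 glucose genes were higher and 2 lower, 9 glucocorticoid targets were higher and 0 lower, and 6 FoxO targets were higher and 1 lower. All genes gave 9.46% higher and 10.2% lower by that measure, and 1.01% higher past adjustment. Past adjustment there, beside Txnip, were Mxd4 (0.25, adjusted p = 0.0459), Mt1, Sdc4 (0.35, adjusted p = 0.011) and Nfkbia, an inhibitor of NF-kB (0.37, adjusted p = 0.035), and no FoxO target.

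By an unadjusted p under 0.05, 4.89% of all genes were higher and 1.89% lower. Of 16 genes of the ATF4 response to amino acid and endoplasmic reticulum stress, 4 were higher and 0 lower by that measure, Slc7a11 among them. The others named were Slc7a5 (0.24, adjusted p = 0.16), Atf3 (a stress transcription factor, 0.18, adjusted p = 0.5) and Phgdh (the first enzyme of serine synthesis, 0.16, adjusted p = 0.53). Inflammasome genes, which Txnip has been tied to through NLRP3, had 1 of 10 higher, Il18 (0.14, adjusted p = 0.63), while Nlrp3 differed by 0.074 (adjusted p = 0.77). Hypoxia-inducible genes went both ways, with 1 of 14 higher (Hmox1) and 2 lower, the vessel growth factor Vegfa (-0.29, adjusted p = 0.26) and Bnip3, a mitochondrial receptor for autophagy (-0.22, adjusted p = 0.53). In the other 8 rats, 7 genes of the ATF4 list were higher and 2 lower, with Slc7a5 (0.31, adjusted p = 0.015) and Phgdh (0.24, adjusted p = 0.03) past adjustment, 2 inflammasome genes were higher and 0 lower, and 2 hypoxia-inducible genes were higher and 3 lower. All genes gave 9.46% higher and 10.2% lower at the unadjusted p in those 8 rats, and 1.01% higher past adjustment. In all 11 rats Txnip was the only gene of the pathway lists past adjustment over all probe sets.

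**Figure D4:**
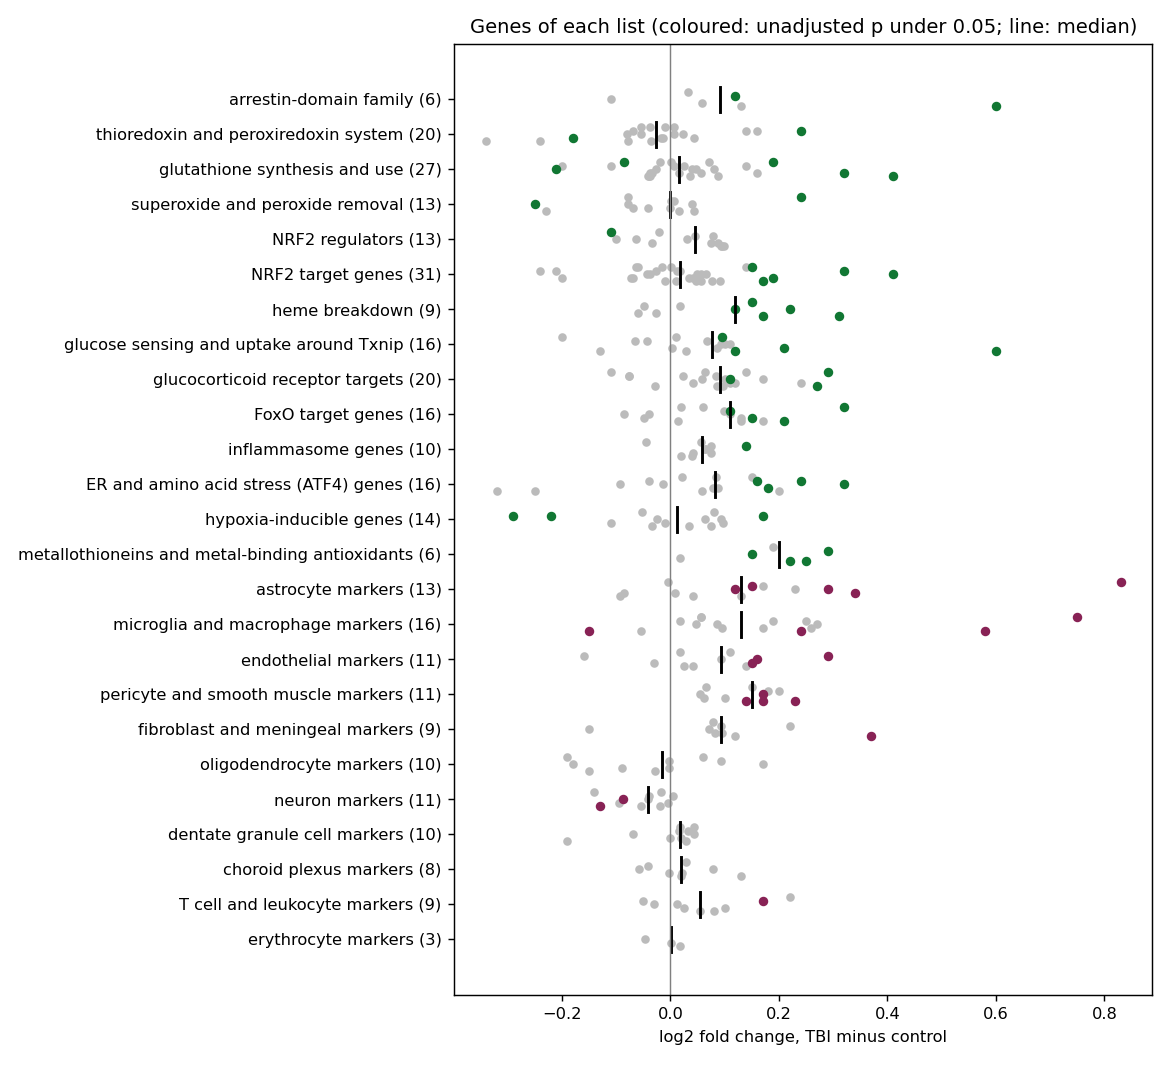
Log2 fold change, TBI minus control, of every tested gene of each list, with the number of genes in brackets and the list median as a black line. Genes with an unadjusted p under 0.05 are green in pathway lists and purple in lists of cell type markers, Txnip at 0.60 is the rightmost point of its lists, and Gfap at 0.83 is that of the astrocyte markers.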

How the data were processed

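The deposited values are log2 signals that the authors obtained with oligo's Robust Multi-array Average (RMA). The submitters' processing notes name version 1.30.0 and the paper's methods an earlier one. RMA subtracts background, gives all arrays one distribution and summarizes the probes of each probe set, so a shift shared by most genes cannot be seen. The precision is limited by the number of arrays, 6 TBI and 5 control, and each rat is a separate animal. Array medians over all 29214 probe sets lay between 5.26 and 5.35.

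Following the paper's methods, a background of 3.06 was used as a floor, and 2136 probe sets no higher than it in over 5 of the arrays were dropped. Among the probe sets tested, 487 values were raised to the floor. That background is the lowest value in the readable part of the authors' result table, whose fold changes and p-values were not used. The platform annotation gave 1 symbol to 18644 probe sets, which were used, and several to 962, while 9608 were not named. The remaining 17905 probe sets of 16572 genes were tested with limma 3.58.1 (lmFit and eBayes) in R 4.3.3, with Benjamini-Hochberg adjustment over all 17905 and a threshold of 0.05. Counts and lists use, for each gene, its brightest probe set by the mean of 11 rats. The platform's symbols Mt1 and Fcrl2 stand for list entries under other symbols, matched through RefSeq, and list genes without a tested probe set were not analysed here.

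The 10 genes, the lists and several alternatives were chosen with earlier results of these data known, so list counts are descriptions and no list was tested as a set. The genes named are the 10, in each pathway list those passing the adjusted threshold and up to 3 more with the lowest p under 0.05, up to 2 of each cell type list, and the 5 genes most like Txnip. Others (Arrdc1, Arrdc2, Arrdc5, Srxn1, Slc3a2, Gss, Gsr, Blvra, Taldo1, Nfe2l2, Keap1, Mlxip, Slc2a1, Nlrp3, Aif1, Gja1, Slc1a2, Slc1a3, Gjb6, Slco1c1, Itm2a, Dock10 and Nfkbia) were added for their role or to complete a count after their values were seen. Covariation with Txnip was tested over all 86400 permutations within groups, with adjustment over the 9 pairs (SciPy 1.17.1 and NumPy 2.4.6 under Python 3.11.15). The within-group component is the first singular vector of each rat's deviations from its group mean. The steps were tested on simulated data, and plots were drawn with matplotlib 3.10.9. For the fits the simulated noise was independent between probe sets, so variation shared by many probe sets, as on the component, was not covered.

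Alternatives changed 1 choice at a time. Values were taken without floor or filter, or filtered at a mean of 5 or more, or centred by array medians, or quantile-normalized again, or probe sets were kept whatever their number of symbols or averaged by gene. The fit was run with limma's trend and robust options, with weights for arrays, with replicate numbers as a block, with the component as a covariate, as the one-way analysis of variance that the methods name, without each rat in turn, and without TBI rats 1 and 3 and control rat 2 together.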

Additional observations from a re-analysis of the deposited data

How the results depend on the processing

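Txnip stayed higher in every alternative run, but not always past the adjusted threshold. Its log2 fold change was 0.58 with centred arrays (adjusted p = 0.07), 0.60 with a second quantile normalization (0.064) and 0.60 by the analysis of variance that the methods name (0.12). It ran from 0.54 to 0.66 with 1 rat left out. Among the 10 genes, 0 were higher at the threshold in those 3 fits and 0 to 1 with 1 rat left out, against 1 as reported. With the within-group component as a covariate 2 were higher and 2 were lower, Slc7a11 (adjusted p = 0.0076) joining Txnip, and Txn1 (0.011) and Gclm (0.04) falling below. The component comes from the same arrays and left the log2 fold changes as they were, so the p-values of that fit can be too low. No pair with Txnip passed in any alternative.

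The labels call the replicate numbers biological replicates only, and the main fit did not pair rats by them. The correlations of the deviations of same-numbered rats were -0.65, -0.5, -0.41, -0.26 and 0.11. They cannot show whether the numbers carry a pairing, since most of the variance lies on a single component. With a replicate block, which in effect leaves out TBI rat 6 because it has no partner, Txnip differed by 0.62 (adjusted p = 0.46), 0 of the 10 were higher, and 3 probe sets were higher and 0 lower overall.

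Over all probe sets, 25 were higher and 2 lower. These were 6 and 3 with centred arrays, 9 and 2 with the second quantile normalization, 7 and 1 by the methods' test, 243 and 67 with array weights, 12 and 1 with any number of symbols, 451 and 495 with the component as a covariate, and 179 and 92 without control rat 2 and TBI rats 1 and 3. With the mean of a gene's probe sets 1 was lower. With 1 rat left out there were 4 to 31 higher and 1 to 4 lower. The 3 rats left out together stand apart on a component from these same arrays, so the p-values of that fit can be too low.

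Nqo1 changed sign with centred arrays (-0.0091), the second quantile normalization (-0.009), the replicate block (-0.0064), and without control rat 1 or TBI rat 6, the range with 1 rat left out being -0.055 to 0.062. Gclc changed sign with array weights (-0.0011), without control rat 2 and TBI rats 1 and 3 (-0.031), and without TBI rat 1, the range with 1 rat left out being -0.0066 to 0.077. The cause was not tested. A mean log2 value of at least 5 leaves out Hmox1.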
